A study of Mus musculus with 20 samples.

Results

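Of 30849 genes in the deposited FPKM table (read fragments scaled to the length of the gene and the depth of the library), 267 came on stepwise after day 16 of chemical reprogramming of mouse fibroblasts. They were chosen on untreated cultures alone: under 0.3 FPKM in fibroblasts and in the mean of day 16, at least 1 FPKM in the mean of day 28, and a rising mean over days 20, 24 and 28. Of 297 genes that met the low and the day 28 thresholds, 280 also met the order; 13 of those, among them Pou5f1 and Dazl, were left out by name, and 16 genes with no such exclusion missed the order. The untreated levels are therefore a description and were not tested; the crotonic acid time course and the established lines took no part in the choice.

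All cells were of strain B6DBA. The libraries used were 2 CiPS lines (chemically induced pluripotent stem cells) made with crotonic acid, 1 CiPS line of the three-step method, crotonic acid cultures at days 20, 24 and 28 (2 each), untreated cultures at days 16, 20, 24 and 28 (2 each), 1 library of mouse embryonic fibroblasts (MEF) and 1 embryonic stem (ES) cell line, OG4. Crotonic acid (CA), a short unsaturated fatty acid, was given at 6 to 8 mM throughout days 16 to 28, so CA and untreated cultures share the day 16 cells. The BrdU line was not analysed here. Each line is 1 library, and nothing in the labels says that the 2 cultures of a day were started from separate embryos, so p-values measure the spread between these cultures, which may be technical. The study asked how CA promotes the appearance of CiPS cells, and the comparison here is whether the stepwise genes kept their order, level and fate under CA and in the lines.

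Totals were 17475848 to 26609755 counted reads per library. The labels fitted their main markers: Pou5f1, the pluripotency factor, stood at 112 to 168 FPKM in the lines, at 9.68 and 8.16 FPKM at day 28 with CA, at 6.61 and 4.39 FPKM at day 28 untreated, and was listed at 0 in MEF. The lines also held fibroblast and macrophage transcripts, with Col1a1 at 986 to 1460 FPKM against 5160 FPKM in MEF, and the 16 genes of a macrophage list summed to 113 to 329 FPKM in lines, against 29.9 and 44.8 FPKM at day 28 with CA. All 267 members together summed to 8.36 FPKM in the MEF library; the part of such transcripts in the values of the lines was not tested. Day 20 CA replicate 2 and day 28 CA replicate 1 stood apart by liver transcripts: Alb, serum albumin, was at 10.8 and 29.6 FPKM there, at 20.8 FPKM in MEF, and at most 0.111 FPKM in the other 16 libraries. Of the 30 liver genes listed, 0 were listed at 0 in the first of these libraries and 1 in the second, against 10 to 16 in the other libraries apart from MEF, where 2 were; none of the 30 is among the stepwise genes, and each comparison was repeated without both libraries, with the values beside the result where it changed. That leaves 1 CA library at day 20 (replicate 1) and 1 at day 28 (replicate 2), whose spread is taken from the other groups.

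In mammals, many germline genes and transposon-derived sequences carry DNA methylation and repressive chromatin in somatic cells, and come on when those marks are lost, as in primordial germ cells or during reprogramming. Pluripotent lines then keep some of these genes on and close others again. DNA methylation and chromatin were not measured here. By gene list, the stepwise genes held 32 of the 116 genes of a germline and meiosis list present in the table and 3 of 47 two-cell-stage genes. They also held 2 of 49 pluripotency, 3 of 70 gut and endoderm, 3 of 29 placental and 2 of 26 chromatin and transposon-control genes. None came from the neural, immune, liver and macrophage lists. Over the whole table, 267 of 30849 genes were members. The 32 germline members are named with the results of their group. By GENCODE M21 class, 166 of 267 (62.2%) were protein coding, against 91.4% of all genes with a day 28 mean of at least 1 FPKM; 33 (12.4%, against 0.521%) were provisional transcripts that GENCODE marks TEC, and 25 (9.36%, against 1.09%) were long intergenic RNAs. Chromosome X carried 34 members (12.7%, against 3.44%), of which 15 lay in 2 multigene families, Rhox2 and Xlr.

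Of the 33 TEC members, 27 belonged to one family of repeated sequences. Sequences from it are shown because they decide how far each copy can be measured. The family joined 31 members on 6 chromosomes, those 27 among them. Each matched another member at 80% identity or more over at least 50% of the shorter transcript, so some may be joined only through others. Among the matched pairs alone, the median identity was 98.43% and the lowest 86.42%. Pairs without such a match were not counted. Short copies from 3 sites are given from GRCm38, 5′ to 3′ in the direction of Gm42687, with capitals at bases that differ from it.
Gm42687, chr3:115910370-115910533, plus strand: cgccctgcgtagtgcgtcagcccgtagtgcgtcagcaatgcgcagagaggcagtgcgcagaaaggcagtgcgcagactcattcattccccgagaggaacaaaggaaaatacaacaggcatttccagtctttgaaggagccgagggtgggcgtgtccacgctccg
Gm43520, chr3:116818815-116818978, plus strand: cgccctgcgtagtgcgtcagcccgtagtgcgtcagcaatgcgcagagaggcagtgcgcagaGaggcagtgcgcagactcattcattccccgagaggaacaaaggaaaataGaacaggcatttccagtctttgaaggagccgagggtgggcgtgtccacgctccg
Gm43535, chr9:110974432-110974595, plus strand, shown as its reverse complement: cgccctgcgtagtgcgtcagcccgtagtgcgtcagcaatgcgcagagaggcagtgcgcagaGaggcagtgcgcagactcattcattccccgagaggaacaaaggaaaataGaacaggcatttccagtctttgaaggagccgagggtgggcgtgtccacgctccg
Gm43520 and Gm43535 carry the same 2 differences from Gm42687, although they lie on chromosomes 3 and 9. Gm44268 and Gm44379, both on chromosome 6, were identical to Gm42687 over all 164 bases. A second stretch, of 255 bases, was found without a single difference in Gm43521 on chromosome 3, Gm44267 on chromosome 6, Gm43836, Gm42605 and Gm42634 on chromosome 5, and Gm38226 on chromosome 9, and it is the whole of Gm43107.
Gm43107, chr3:115913809-115914063, minus strand: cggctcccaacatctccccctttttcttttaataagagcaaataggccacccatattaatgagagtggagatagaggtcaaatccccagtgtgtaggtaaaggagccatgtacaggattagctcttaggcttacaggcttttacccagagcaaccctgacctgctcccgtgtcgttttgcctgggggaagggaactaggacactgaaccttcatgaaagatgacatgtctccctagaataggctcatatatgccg
Short sequencing reads cannot be placed on one copy of an identical sequence, so the single copies are uncertain and the family is given as a sum over its 31 members. That sum leaves out 8 genes of the table that are no members but hold at least 50% of the sequence of Gm44267 or Gm42687: the protein-coding D10Wsu102e, Noct and Slc38a6 and the TEC genes Gm38194, Gm37282, Gm37665, Gm44215 and Gm44231. In all, 13 groups joined by such matches held 63 of the 267 members, among them the Rhox2, Xlr4 and Xlr5 genes and Tuba3a with Tuba3b. The two-cell-type pairs Pramef25 with BC080695, Gm20767 with Gm21818 and Gm5039 with Gm6803 were further groups. The single values of these members are uncertain in the same way.

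Summed over its 31 genes, the repeat family stood at 0.504 FPKM in MEF and at 0.53 and 0.925 FPKM at day 16. Under CA the sum was 132 and 29.9 FPKM at day 20, 314 and 132 FPKM at day 24, and 602 and 342 FPKM at day 28. Untreated cultures gave 174 and 47.4 FPKM at day 20, 343 and 205 FPKM at day 24, and 642 and 493 FPKM at day 28. In the sum, replicate 1 was above replicate 2 at each of these days in both media. Single members could go the other way: Gm43535 had 6 and 131 counts at untreated day 28 and 10 and 101 with CA. Gm43520, with the same shown sequence, had 31 and 27 counts, and 52 and 16 with CA. The CA sum lay below that of the untreated culture with the same number in every pair, although the ranges of both media overlapped at every day. In the lines the 31 members were nearly silent, at 1.18 and 2.11 FPKM in the CA lines, 1.71 FPKM in the three-step line and 0.851 FPKM in ES cells. The 8 other genes, which hold sequence of Gm44267 or Gm42687, summed to 61.4 and 49 FPKM at day 28 with CA, against 56.5 and 57.7 FPKM untreated. They summed to 36.5 to 41.7 FPKM in the lines and 19.3 FPKM in MEF, there mostly from D10Wsu102e. Noct, Slc38a6 and D10Wsu102e were at 1 FPKM or more in ES cells. The 5 TEC genes among the 8 were at most at 0.2726 FPKM in any line. The highest single members of the family at day 28 were Gm43940, Gm44380, Gm42605 and Gm43836; Gm43835 and Gm42566 lie next to Gm43836 on chromosome 5. Outside the family, the pseudogene Gm15930 on chromosome 7, whose reads may be shared with a parent gene, stood at 43.6 and 33 FPKM at day 28 with CA, against 33.6 and 30 FPKM untreated, and the long intergenic RNA Gm11815 on chromosome 4 at 26.5 and 14 FPKM, against 36.8 and 26 FPKM; both were at most at 0.0631 FPKM in the lines.

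**Figure D1:**
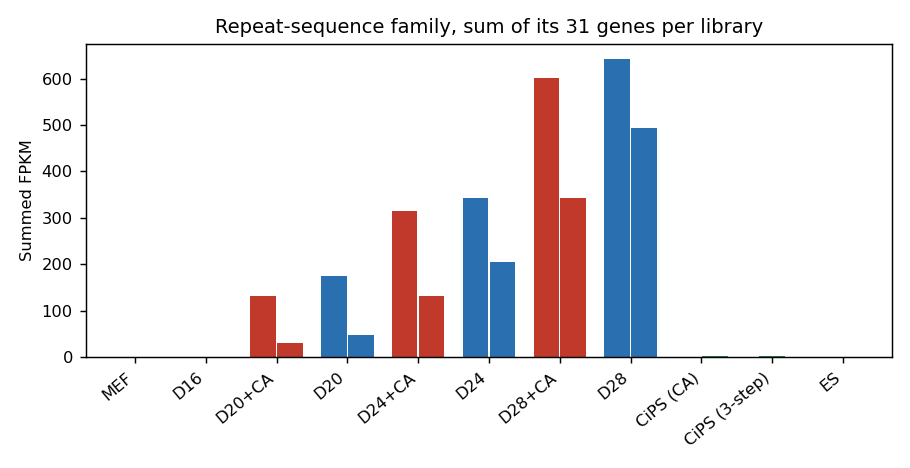
Summed FPKM of the 31 genes of the repeat family, 1 bar per library, red for CA cultures and blue for untreated cultures of the same day. MEF, day 16 and the lines are grey or green, with bars too low to see. The sum reaches 602 and 342 FPKM at day 28 with CA and 642 and 493 FPKM untreated, and lies between 0.851 and 2.11 FPKM in the lines.

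Crotonic acid cultures were not used in the choice of genes. In them, 243 of 267 members (91%) kept the same stepwise order of means over days 20, 24 and 28. The share was 31.4% of all genes with a day 28 CA mean of at least 1 FPKM. Of the 16 genes that met the thresholds but not the untreated order, 10 (62.5%) were in order with CA. The order held in each replicate set for 220 members (82.4%, against 18% of all genes with that day 28 CA mean). In the untreated cultures that chose the genes, it held in each set for 226. Both time courses start from the same day 16 cells, so the CA order is a separate measurement of the cultures but not of their origin. The median member stood at 0.55 FPKM at day 20, 1.48 FPKM at day 24 and 2.77 FPKM at day 28 with CA; untreated medians were 0.628, 1.41 and 2.72 FPKM at these days, after 0.028 FPKM at day 16 and 0 in MEF. In bulk cultures, more cells that carry a transcript and more transcript per cell cannot be told apart.

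**Figure D2:**
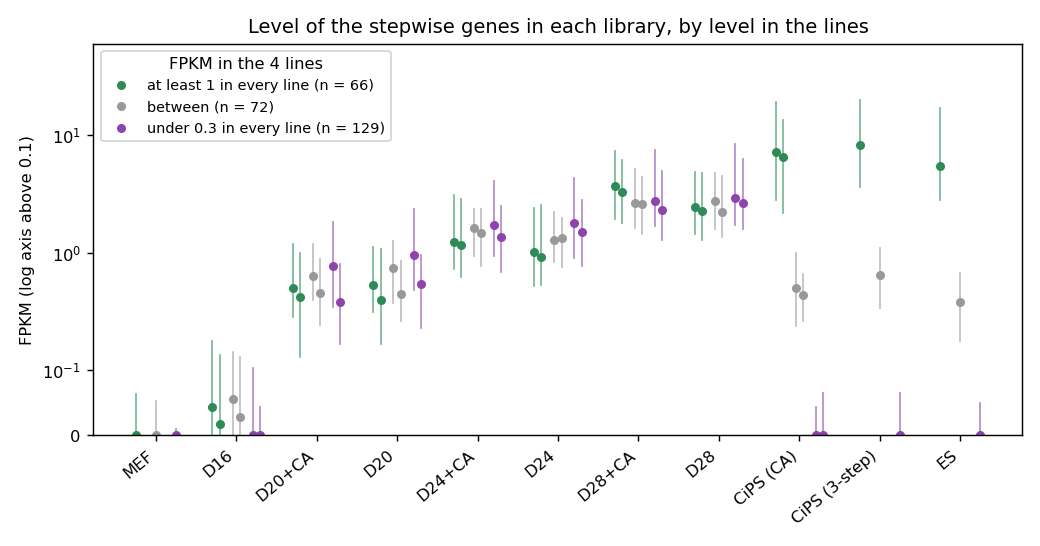
Median FPKM (points) and quartiles (lines) of the stepwise genes in each library, on an axis that is logarithmic above 0.1 FPKM, with genes split by their level in the 4 lines. All 3 classes climb through days 20, 24 and 28 in CA and in untreated cultures. In the lines the split itself sets the medians apart, from 5.49 to 8.28 FPKM for the first class to 0 for the third.

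By edgeR's quasi-likelihood test over 17387 genes, adjusted with Benjamini-Hochberg, 132 members were higher at day 28 than at day 20 with CA and 0 were lower, where 4.54% of all genes tested were higher and 1.82% lower. A filter on low counts left 258 members in this fit; all 258 had a positive fold change, with a median of 2.36 on the log2 scale, against 0.0168 over all genes. In 251 of the 258, both day 28 libraries lay above both day 20 libraries, against 31.1% of all genes. Since a member can pass the filter through its day 28 libraries alone, these counts describe the members and support nothing further. Same-numbered cultures varied together, and with the replicate number as a block 225 members were higher, against 12.8% of all genes. Leaving out any 1 of the 4 libraries left 53 to 67 calls. Without both libraries that held liver transcripts, which leaves 1 library on each side, 256 of 259 members tested stayed higher at day 28. Their median log2 change was 1.75. Every call between days 28 and 20 with CA that is given for a member below was lost without those libraries. Among members with at least 20 counts at the higher day, the smallest changes were those of Them5, Stra8, Rhox2d, Sox30, Rhox2c and Pla2g12b, from 0.19 to 0.58 on the log2 scale, and none of the 6 passed.

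Between neighbouring time points fewer members passed. Trap1a, Chit1 and Trim50 were higher at day 24 than at day 20 with CA by edgeR (3 members, against 0.0288% of all genes; 71 with the replicate block, against 1.37%; 46 by DESeq2, against 0.799%), and these calls were lost when any 1 of the 4 libraries was left out. From day 24 to day 28, edgeR called 0 members and 0% of all genes. The replicate block called 23 members, against 0.817% of all genes, DESeq2 17, against 0.541%, and limma on log2(FPKM + 1) 33, against 0.972%. The median log2 change of the tested members was 1.41 in the day 24 to day 20 comparison and 0.908 in that of day 28 to day 24. Without both libraries with liver transcripts the 3 edgeR calls at day 24 were lost as well. Of 259 members tested, 254 were then higher at day 24 than at day 20 (median 1.12). At day 28, 225 of 259 were higher than at day 24 (median 0.742).

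Among pluripotency genes, Trap1a (also known as P1A, an X-linked gene of testis, placenta and stem cells) was the highest protein-coding member. It stood at 20.4 and 16 FPKM at day 20, 64 and 57.8 FPKM at day 24 and 98.8 and 87.6 FPKM at day 28 with CA. Untreated cultures held 32.1 and 26.2, then 51.4 and 65.7, then 85.3 and 84 FPKM. At day 28 both media lay within the range of the lines or just above it, which was 70.5 to 88.5 FPKM; the change between days 28 and 20 with CA was 2.36 ± 0.17 on the log2 scale (SE; edgeR, adjusted p 0.000408). Triml2, a TRIM-family-like gene, reached 5.52 and 5.46 FPKM at day 28 with CA and 5.87 and 5.83 FPKM untreated, and stood at 16.3 to 20.3 FPKM in the lines. Across the whole pluripotency list, 14 of 42 tested genes were higher at day 28 than at day 20 with CA and 0 lower, where 4.54% of all genes were higher.

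Germline genes formed the largest named group. Their 32 members were Cyct, Tex19.1, Tuba3a, Xlr3c, Tuba3b, Xlr4a, Hsf2bp, Syce1, Hormad2, Gtsf1l, Tex12, Xlr4b, Xlr5a, Slc25a31, Stra8, Rpl10l, Tdrd6, Taf7l, Xlr5b, Mov10l1, Xlr4c, Mei1, Ldhc, Magea5, Tex101, Ooep, Tex19.2, Magea8, Pramel1, Piwil4, Hormad1 and D1Pas1. With CA, 25 of the 32 were higher at day 28 than at day 20 and 0 lower by edgeR, where 4.54% of all genes were higher (30 with the replicate block, against 12.8%), with a median log2 change of 2.34. Without both libraries with liver transcripts the 25 calls were lost, and 31 of the 32 were higher, with a median of 2.10. Of the other 59 genes of the list that were tested, 20 were higher and 0 lower, with a median of 1.31.

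Cyct, the testis form of cytochrome c, was at 9.64 and 8.72 FPKM at day 20, 21 and 25.4 FPKM at day 24 and 30.9 and 46.2 FPKM at day 28 with CA. Untreated cultures held 7.78 and 6.89, 12.5 and 14.4, and 22.7 and 28.3 FPKM at these days. Both CA cultures lay above both untreated cultures on each day, yet at day 28 the log2 difference was 0.60 ± 0.26 (SE; edgeR, adjusted p 0.891; unadjusted p 0.0437). The lines held 17.4 to 29.7 FPKM, below both CA cultures of day 28 (CiPS lines against day 28 CA -0.61 ± 0.26, SE; edgeR, adjusted p 0.0607, or 0.0366 without both libraries with liver transcripts). Tex19.1, which guards germ cells and placenta against transposons in mice, was at 5.97 and 4.17 FPKM at day 20 and at 21.9 and 21.2 FPKM at day 28 with CA, against 6.69 and 4.45 FPKM, then 19.7 and 14.5 FPKM, untreated. It was higher again in the lines, at 60.1 to 81.1 FPKM (log2 change of CiPS lines against day 28 CA 1.70 ± 0.24, SE; edgeR, adjusted p 5.45e-05). Its paralogue Tex19.2, and Sectm1a, lie within 100 kb of it on chromosome 11 and are members too; Tex19.2 stayed at 1.07 to 3.6 FPKM in the lines, where Sectm1a was listed at 0.

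Genes of the meiotic chromosome axis and synapsis were on at low level. Hormad1, an axis protein that marks unsynapsed chromosomes, stood at 1.95 and 0.962 FPKM at day 28 with CA, against 1.47 and 0.71 FPKM untreated, and at 6.05 to 15.9 FPKM in the lines. Syce1, of the synaptonemal complex, was at 7.44 and 5.69 FPKM with CA, against 4.84 and 4.42 FPKM untreated, and at 2.45 to 4.55 FPKM in the lines. Mei1, needed for meiotic DNA breaks in mice, was at 2 and 2.69 FPKM with CA, against 2.16 and 2.18 FPKM untreated, and at most at 0.109 FPKM in the lines. Against day 28 with CA, Hormad1 was higher in the CiPS lines (log2 change 2.93 ± 0.49, SE), and Syce1 (-1.02 ± 0.29) and Mei1 (-4.52 ± 0.30) were lower (edgeR, adjusted p 0.000303 for Hormad1, 0.00982 for Syce1 and 9.34e-08 for Mei1). Syce1 no longer passed when the libraries with liver transcripts were left out (adjusted p 0.0846). Stra8, the retinoic acid target at the entry into meiosis, was nearly flat from day 20: 2.33 and 2.87 FPKM at day 20 and 2.88 and 3.27 FPKM at day 28 with CA, a log2 difference of 0.25 ± 0.34 (SE; edgeR, adjusted p 0.701).

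Some germline members are known from the piRNA pathway, which silences transposons in germ cells; no list of that pathway was tested, and Piwil2, Mael and Asz1 are among the genes left out by name. Piwil4, a PIWI protein of fetal male germ cells in mice, stood at 1.95 and 1.26 FPKM at day 28 with CA, against 2.18 and 0.431 FPKM untreated, and at most at 0.0498 FPKM in the lines. Mov10l1, an RNA helicase, stood at 4.5 and 3.65 FPKM at day 28 with CA, against 2.11 and 2.31 FPKM untreated; the groups did not overlap, but the log2 difference of 0.89 did not pass edgeR's test (adjusted p 0.984; 0.266 with the replicate block). Tdrd6, a Tudor-domain scaffold of male germ cells, was lower with CA, at 1.01 and 1.02 FPKM with CA, against 2.81 and 2.23 FPKM untreated, a log2 difference of -1.31 ± 0.46 (SE; edgeR, adjusted p 0.729; 0.13 with the replicate block). Rnf17, another Tudor-domain gene, which lay just inside the day 28 threshold at a mean of 1.003 FPKM, was at 1.58 and 1.15 FPKM with CA and at 20 to 24.1 FPKM in the lines. Just inside that threshold with it were Mir6928 (1.014 FPKM) and Mir195b (1.022 FPKM), and just outside Gm30191 (0.977 FPKM), Padi4 (0.969 FPKM) and Gadl1 (0.966 FPKM).

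Promoters were examined because many germline genes are closed in somatic cells by factors that read CpG-rich sequence, an E-box (CACGTG) or an E2F-type word (GCGGGA). RefSeq windows from 250 bases before to 50 after the start (GRCm38.p6) matched 150 of 267 members, too few for a statement on all of them, but 31 of the 32 germline members. Their median ratio of observed to expected CpG was 0.575, against 0.389 over 27025 promoters and 0.775 over promoters of genes with a day 28 mean of at least 1 FPKM. On either strand, CACGTG was found in 5 of the 31 (16.1%, against 7.24% of all promoters and 10.6% of those of genes at 1 FPKM or more at day 28). GCGGGA was found in 10 (32.3%), between the share of all promoters (20%) and that of the genes at 1 FPKM or more (37.2%). The octamer-like word ATGCAAA was found in 2 (6.45%, against 4.59% and 3.32%). The words do not overlap one another, and CACGTG reads the same on both strands. Tex12, Slc25a31 and Hormad1 held both CACGTG and GCGGGA. The promoters of Slc25a31, an ADP/ATP carrier of germ cells, and Tex12, of the synaptonemal complex, are given with these words in capitals. The E2F-type word is on the shown strand in Tex12 and on the other strand, as TCCCGC, in Slc25a31.
Slc25a31, chr3:40708621-40708920, plus strand: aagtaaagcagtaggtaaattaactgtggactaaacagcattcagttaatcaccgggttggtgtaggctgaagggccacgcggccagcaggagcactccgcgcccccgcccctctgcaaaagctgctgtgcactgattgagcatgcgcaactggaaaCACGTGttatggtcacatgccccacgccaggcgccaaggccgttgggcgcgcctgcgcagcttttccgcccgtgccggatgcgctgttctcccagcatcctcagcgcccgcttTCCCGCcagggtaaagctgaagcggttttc
Tex12, chr9:50561219-50561518, minus strand: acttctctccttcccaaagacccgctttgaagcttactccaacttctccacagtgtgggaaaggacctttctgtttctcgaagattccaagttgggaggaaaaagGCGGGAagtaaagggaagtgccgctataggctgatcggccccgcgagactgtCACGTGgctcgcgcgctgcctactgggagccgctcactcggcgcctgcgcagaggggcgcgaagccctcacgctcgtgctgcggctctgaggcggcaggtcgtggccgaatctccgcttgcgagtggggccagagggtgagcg
Slc25a31 stood at 1.16 and 0.524 FPKM at day 20 and at 6.24 and 3.32 FPKM at day 28 with CA; untreated cultures held 1.43 and 0.844 FPKM, then 4.07 and 2.12 FPKM. Tex12 stood at 0.572 and 0.724 FPKM, then 6.23 and 4.37 FPKM, with CA, and at 1.24 and 0.298 FPKM, then 3.88 and 4.28 FPKM, untreated. Both were higher at day 28 than at day 20 with CA by edgeR (adjusted p 0.029 for Slc25a31 and 0.0167 for Tex12), and both were lower in the CiPS lines than at day 28 with CA (adjusted p 0.00102 for Slc25a31 and 5.82e-05 for Tex12). Both words in a window do not show that a factor binds there.

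The X-linked families were on during reprogramming and low in most lines. The 8 Xlr genes, lymphoid- and testis-expressed relatives of a synaptonemal complex protein, summed to 10.9 and 8.39 FPKM at day 20, 19.3 and 19.3 FPKM at day 24 and 29.6 and 26.9 FPKM at day 28 with CA. Untreated sums were 16.4 and 12.9, 21.1 and 22.5, and 30.4 and 33.2 FPKM. Both CA cultures lay below both untreated cultures at each of the 3 days. ES cells held 0.45 FPKM, against 4.7 to 7.58 FPKM in the 3 CiPS lines; Xlr4a, at 1.62, 1.49 and 1.64 FPKM in the CiPS lines and 0.0331 FPKM in ES cells, was the only member that edgeR called between CiPS and ES lines (0.0204% of all genes called higher; 1 ES library). The neighbouring Pnma5, a paraneoplastic-antigen-like gene, differed from the Xlr genes: it was at 5.22 and 3.87 FPKM at day 28 with CA, against 3.78 and 3.07 FPKM untreated, and at 2.02 to 18.8 FPKM in the lines.

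The 7 Rhox2 genes, are reproductive homeobox genes in one cluster on X (Rhox2a, Rhox2b, Rhox2c, Rhox2d, Rhox2f, Rhox2g and Rhox2h), beside Gm9 and Rhox1. They summed to 5.71 and 5.07 FPKM at day 20, 7.84 and 14.5 FPKM at day 24 and 8.34 and 9.89 FPKM at day 28 with CA, against 9.56 and 5.85, 10.5 and 14.3, and 11.9 and 21.8 FPKM untreated. Both day 28 CA sums lay above both day 20 CA sums, and at day 28 both CA sums lay below both untreated ones. None of the 7 was called between days 28 and 20 with CA (Rhox2a 0.72 ± 0.52, SE, on the log2 scale; edgeR, adjusted p 0.436; 0.316 with the replicate block). All 7 together held 0.0602 to 0.426 FPKM in the lines, whereas Rhox1 beside them held 0.805 to 1.7 FPKM there.

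**Figure D3:**
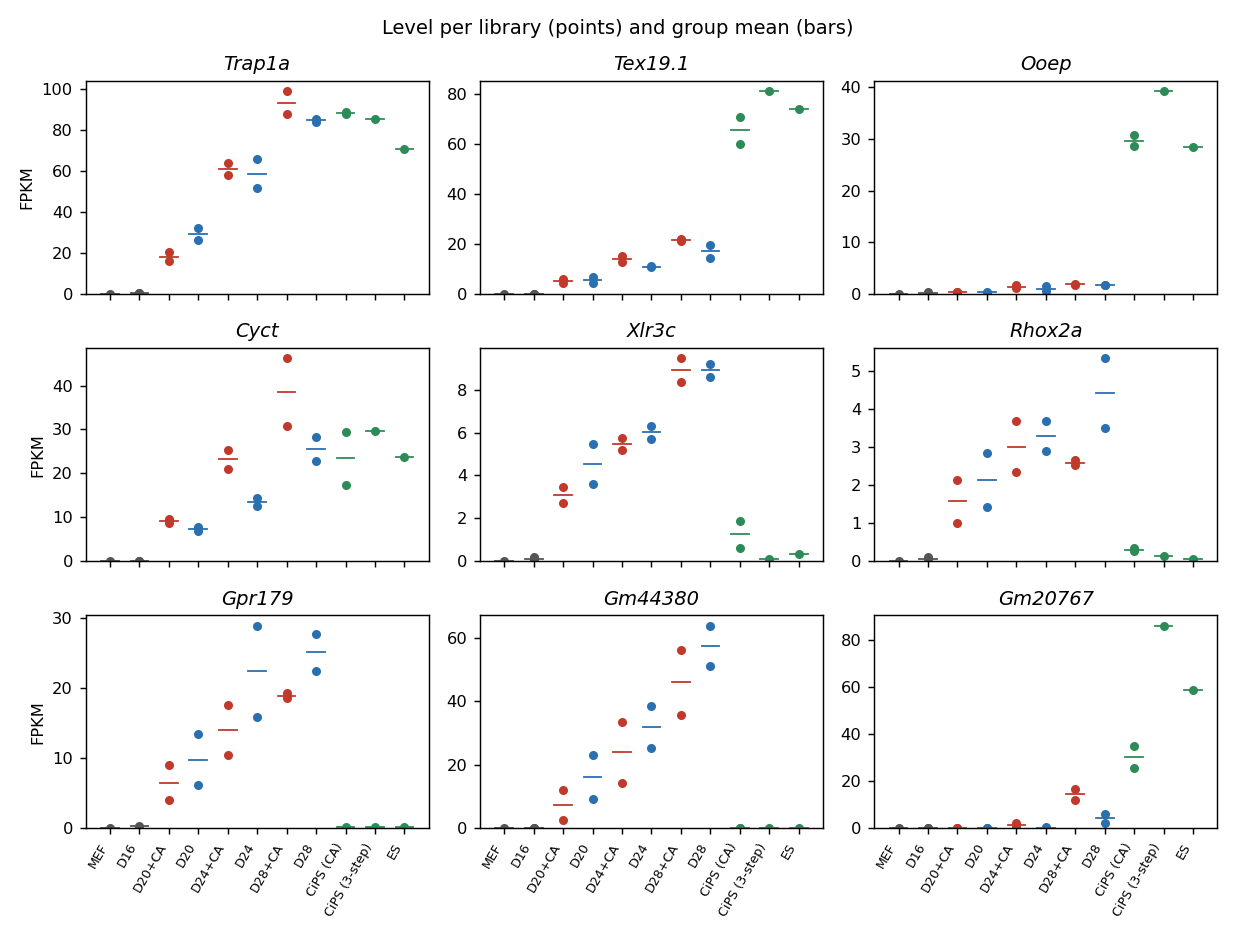
FPKM of 9 stepwise genes in each library (points) with the group mean (bars), each on its own axis from 0; red is CA, blue untreated, grey MEF and day 16, green the lines. Trap1a at day 28 lies within or just above the lines, Cyct at day 28 with CA lies above every line, Tex19.1, Ooep and Gm20767 go on to higher levels there, and Xlr3c, Rhox2a, Gpr179 and Gm44380 are low or off in the lines.

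Among the latest to come on were Gm20767, Gm5039 and Pramef25 of the two-cell-embryo list with their near-copies Gm21818, Gm6803 and BC080695. They lie in pairs on chromosomes 13, 12 and 4, and Pramef25 belongs to the Prame family, known from germ cells and early embryos. None had a single count in either day 20 CA library, so the fold is a lower bound against 3 counts over the group. From that bound Pramef25 was at least 154-fold higher at day 28 (433 counts), BC080695 at least 122.4-fold and Gm20767 at least 114.9-fold higher with CA, all 3 past edgeR's test (adjusted p 0.00168 for Pramef25, 0.00239 for BC080695 and 0.00784 for Gm20767). Gm20767 was at 2.19 and 0.498 FPKM at day 24 and 16.9 and 12.1 FPKM at day 28 with CA, against 0.494 and 0.0912 FPKM, then 5.99 and 2.32 FPKM, untreated. In all 6 genes both CA cultures lay above both untreated cultures at day 28, and these were the 6 largest upward differences with CA among the members at that day. The log2 differences were 2.11 ± 0.39 for Gm21818, 2.09 ± 0.56 for Gm5039, 1.92 ± 0.47 for Pramef25, 1.84 ± 0.73 for Gm6803, 1.81 ± 0.54 for BC080695 and 1.80 ± 0.70 for Gm20767 (SE). No edgeR p passed after adjustment over all genes (adjusted p 0.346 to 0.89); with the replicate block Pramef25 (0.0473) and BC080695 (0.0432) passed. The 6 log2 differences were 1.43 to 1.87 when the libraries with liver transcripts were left out. In the CiPS lines Gm20767, Gm5039, Pramef25 and BC080695 were higher than at day 28 with CA by edgeR (adjusted p 0.0415, 0.0146, 0.0283 and 0.032), while Gm21818 (0.0605) and Gm6803 (0.0658) did not pass. None of the 6 passed when the libraries with liver transcripts were left out (adjusted p 0.0618 to 0.175). The levels were uneven between lines: Gm20767 stood at 34.9 and 25.6 FPKM in the CA lines, 86.1 FPKM in the three-step line and 58.6 FPKM in ES cells. Of the 29 other two-cell genes tested, 27 were higher at day 28 than at day 20 with CA and 0 lower, where 4.54% of all genes were higher. Their median was 8.14 on the log2 scale. Such genes, like the 6 named above, can pass the filter on low counts through their day 28 libraries alone. This count and the calls of the named genes between those days therefore describe them and support nothing further. Gm21731, next to Gm20767 and Gm21818, was at 2.84 and 1.2 FPKM at day 28 with CA, against 2.29 and 1.02 FPKM untreated. BC053393 on chromosome 11 shared the late onset, with 0 counts at day 20 and 3.19 and 1.45 FPKM at day 28 with CA, but not the later course: it was at most at 0.221 FPKM in the lines.

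Other members are known from differentiated tissues, although the neural, immune and liver lists held none. Gpr179, a retinal orphan receptor, was the highest protein-coding gene that the lines lacked: 9.07 and 4 FPKM at day 20 and 18.6 and 19.3 FPKM at day 28 with CA, against 13.4 and 6.17 FPKM, then 27.8 and 22.5 FPKM, untreated. It also sat just inside the day 16 threshold (0.2973 FPKM in the day 16 mean), as did Pkd2l1 (0.2941 FPKM) and Ceacam10 (0.2939 FPKM); just outside it were Gm24463, BC025446 and Birc7 (0.3015, 0.3094 and 0.3149 FPKM). Hand1, a transcription factor of trophoblast and heart, was at 6.23 and 6.85 FPKM at day 28 with CA, against 3.95 and 3.08 FPKM untreated, without overlap (log2 difference 0.90 ± 0.35, SE; edgeR, adjusted p 0.832), and at 0.188 to 0.487 FPKM in the lines. Between days 28 and 20 with CA, 2 of the 3 members of the placental list were higher by edgeR. Of its 20 other tested genes 0 were higher and 0 lower, where 4.54% of all genes were higher and 1.82% lower. The median log2 change of these 20 was -0.00837. Cyp2c55, a cytochrome P450 of the gut, stood at 8.81 and 3.94 FPKM at day 28 with CA, against 8.32 and 3.65 FPKM untreated, and at most at 0.112 FPKM in the lines. Mep1b, the beta subunit of the gut protease meprin, was at 1.9 and 1.32 FPKM with CA, against 1.07 and 1.17 FPKM untreated, and at 4.64 to 10.9 FPKM in the lines. Pla2g12b, a phospholipase-like gene and the third member of the gut and endoderm list, was at 1.02 and 1.14 FPKM with CA, against 1.21 and 1.5 FPKM untreated, and changed little after day 20 (log2 0.58 ± 0.48 between days 28 and 20 with CA, SE; edgeR, adjusted p 0.498). Of the 3, only Mep1b passed between those days; of the 47 other tested genes of that list 2 were higher and 1 lower, where 4.54% of all genes were higher and 1.82% lower. A run of 5 neighbouring members on chromosome 7 held Ffar3, a receptor for short-chain fatty acids, Cd22, a B-cell lectin, D7Ertd128e, Hamp2, a hepcidin, and Usf2-ps1. Ffar3 stood at 12.7 and 10.6 FPKM at day 28 with CA, against 5.54 and 5.26 FPKM untreated, and its CA cultures were above the untreated ones at days 20 and 24 too; the log2 difference at day 28 was 1.10 ± 0.38 (SE; edgeR, adjusted p 0.707; 0.124 with the replicate block). Its neighbours Cd22 (0.24 ± 0.41) and D7Ertd128e (-0.01 ± 0.37) differed by less than their error. In all, 23 runs of members less than 100 kb apart held 62 of the 266 members with a position, 7 of them with 3 or more genes.

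At the MEF threshold, Rinl (0.2955 FPKM), Tmem171 (0.2941 FPKM) and Slc22a13b-ps (0.2874 FPKM) lay just inside, and Gm37665, M1ap and Epn3 (0.3125, 0.3157 and 0.332 FPKM) just outside. The 16 genes that met the thresholds without the untreated order were mixed under CA, where 10 of them were in order.

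Between crotonic acid and untreated cultures, members lay on the lower side more often than all genes at day 20 alone. That was not so without the libraries with liver transcripts. At days 24 and 28 their shares were near those of all genes. These contrasts use the untreated libraries that chose the members, so they are given as descriptions beside all genes. At day 20 the CA mean was above the untreated mean in 87 of 267 members (32.6%, against 46.6% of genes with a day 28 mean of at least 1 FPKM), at day 24 in 139 (52.1%, against 46.4%) and at day 28 in 123 (46.1%, against 42.6%). edgeR called 0 members and 0% of all genes at day 20, and DESeq2, the replicate block and limma called 0 members. At day 24 edgeR called 0 members and 0% of all genes, with 1 member higher by DESeq2 (against 0.201% of all genes) and 0 with the block. At day 28 edgeR called 0 members and 0% of all genes. DESeq2 called 1 higher, against 0.207% of all genes, and the block 2 higher, against 0.299%. limma called 8 higher and 1 lower, against 0.5% and 0.0863%. The edgeR test of whether the CA effect at day 28 differed from that at day 20 called 0 members and 0 of all genes, also with the block. Under an unadjusted p of 0.05 were 4 members, against 184 of all 17387 genes tested. With the block there were 11 members, against 460 of all genes. Without both libraries with liver transcripts the fitted difference was above 0 in 136 of 259 members at day 20, 133 at day 24 and 109 at day 28. At day 20 most members thus no longer lay below.

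Split by their level in the lines, a measure the rule did not use, the members differed in direction. At day 28 the CA mean was above the untreated mean in 51 of 66 members (77.3%) that every line held at 1 FPKM or more, in 35 of 72 (48.6%) of those between, and in 37 of 129 (28.7%) that every line held under 0.3 FPKM. At day 24 these counts were 52 of 66 (78.8%), 41 of 72 (56.9%) and 46 of 129 (35.7%), and at day 20 they were 26 (39.4%), 33 (45.8%) and 28 (21.7%). Both CA cultures lay above both untreated ones at day 28 in 31 of the 66 and below them in 6; of the 129 they lay above in 12 and below in 38, where 16.2% of all genes lay above and 15.5% below. The median log2 difference at day 28 was 0.264 for the tested members of the first class, -0.00403 for the second and -0.215 for the third, against -0.00927 over all genes. No test of this split was run, since genes of one culture are not independent. Outside the repeat family, 32 of 102 (31.4%) of the third class were above at day 28, and so were 6 of the 31 in the family (19.4%). Without both libraries with liver transcripts the fitted difference at day 28 was above 0 in 47 of 65, 33 of 70 and 29 of 124 tested members of the 3 classes, and at day 20 in 28, 38 and 70.

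**Figure D4:**
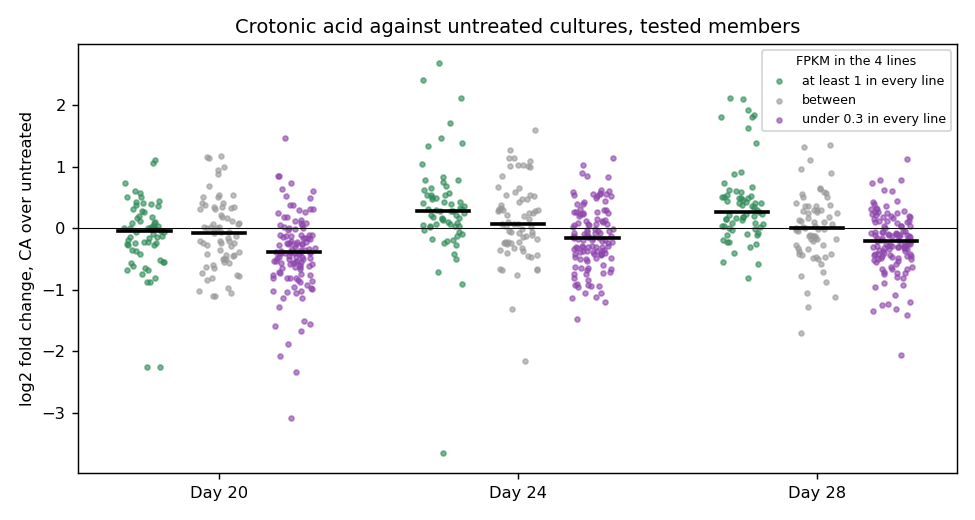
log2 fold change (edgeR) of CA over untreated cultures at days 20, 24 and 28 for each tested member, split by level in the 4 lines; black bars are medians. At day 28 the medians are 0.264, -0.00403 and -0.215, and the highest points are the two-cell-type genes.

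The 6 largest downward differences with CA at day 28 were in genes of low level, and none passed edgeR's test. C9, a complement component made in liver, stood at 0.543 and 0.387 FPKM with CA, against 1.04 and 1.44 FPKM untreated (log2 -1.41 ± 0.36, SE; edgeR, adjusted p 0.432; 0.0973 with the replicate block). Rhox2b, Il17b, a cytokine, Rnf39, a ring finger gene, and the long noncoding 1810007D17Rik were the others beside Tdrd6, with 8 to 57 counts over the CA cultures and 32 to 133 over the untreated ones. In the 2 libraries with liver transcripts C9 held 0.543 FPKM (day 28) and 0.192 FPKM (day 20), both below every untreated culture of the same day.

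In the lines the 267 genes parted. At least 1 FPKM in all 4 lines was held by 66 (24.7%, against 84.4% of all genes with a day 28 mean of at least 1 FPKM), less than 0.3 FPKM in all 4 by 129 (48.3%, against 4.25%), and a level between by 72 (27%, against 11.4%). The genes compared with did not have to be low in MEF or at day 16, as the members did. Of the 129, 46 were listed at 0 in every line. The day 28 untreated mean was above the ES level in 219 of 267 members, and in 134 it was at least 10 times the highest line. By edgeR over 19597 genes, with 260 members tested, 32 members were higher in the 3 CiPS lines than at day 28 with CA (28.1% of all genes) and 182 lower (30.3%). For the ES library against day 28 with CA the counts were 26 higher (21.7%) and 166 lower (22.7%). The median log2 change from day 28 CA was -3.92 for CiPS lines and -4.28 for ES cells, against 0 and -0.0243 over all genes. Both contrasts share the day 28 CA libraries. The rule required the members to be on at untreated day 28, and a member can pass the filter through its culture libraries alone. The counts of lower members therefore describe the members and support nothing further. The same holds for the 219 and 134 members above, for which no share over all genes was taken. Without both libraries with liver transcripts the median log2 change of the 261 members tested was -3.88 for the CiPS lines and -4.25 for ES cells. The 3 CiPS lines and the ES line differed in 1 member by edgeR, where 0.0204% of all genes were higher and 0% lower.

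**Figure D5:**
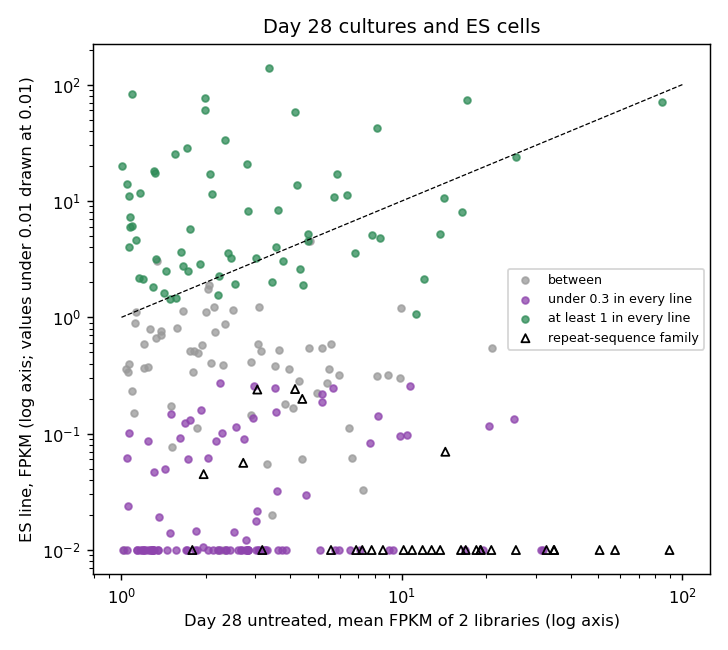
Mean FPKM at untreated day 28 (horizontal) against FPKM in ES cells (vertical), both on log axes, 1 point per stepwise gene; values under 0.01 are drawn at 0.01, the dashed line marks equality and triangles are the repeat family. 219 of 267 genes lie below the line.

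The members that rose most into the lines were Pla2g1b, Ooep, Rnf17, Morc1, Sox15 and 1700029P11Rik. Pla2g1b, a secreted phospholipase known from pancreas, was at 64, 55.2 and 87.3 FPKM in the CiPS lines, against 0.844 and 0.631 FPKM at day 28 with CA (log2 change 6.52 ± 0.35, SE; edgeR, adjusted p 1.73e-08). ES cells held 83 FPKM, and untreated day 28 cultures 1.29 and 0.893 FPKM. Ooep, a maternal-effect gene of oocyte and early embryo, was at 30.7, 28.6 and 39.3 FPKM, against 1.84 and 1.79 FPKM (4.17 ± 0.46; adjusted p 7.54e-06, edgeR). Morc1, which silences transposons in male germ cells of mice, was at 26.3, 22 and 19.4 FPKM, against 1.82 and 1.06 FPKM. Sox15, a SOX factor of stem cells and muscle, was at 9.93, 10.1 and 11.7 FPKM, against 0.43 and 1.31 FPKM. In these genes every line lay above every day 28 culture, and ES cells lay within or near the range of the CiPS lines. In 13 members the ES level was at least 10 times the untreated day 28 mean.

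The members that fell most were Gm14149, Gm10040, Gm38226, Slco1a6, Gm43798 and Spinkl. Slco1a6, an organic anion transporter, was listed at 0 in all 4 lines, against 4.12 and 1.53 FPKM at day 28 with CA, and was at least 246.9-fold lower in the CiPS lines by the 3-count bound (edgeR, adjusted p 0.00031). Spinkl, a serine protease inhibitor-like gene of the male reproductive tract, was at 0 in all 4, against 25.8 and 10 FPKM with CA and 22.9 and 10.7 FPKM untreated. Gm14149, a noncoding gene on chromosome 2, was at 0 in all 4, against 11.2 and 6.09 FPKM with CA. All 31 repeat-family members were lower in the CiPS lines by edgeR, where 30.3% of all genes were lower. In ES cells 28 of 31 were lower, where 22.7% of all genes were. With so few counts in the lines, these members can pass the filter through the cultures alone, and copies share reads. These counts therefore describe the family and support nothing further. Of the germline members, 7 were higher and 17 lower in the CiPS lines than at day 28 with CA, where 28.1% of all genes were higher and 30.3% lower; of the 70 other germline genes tested, 20 were higher, a share near that of all genes, and 26 lower.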

How the data were processed

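RNA was sequenced from 20 samples, per the labels, and 19 libraries were analysed; 1 column of per-sample values matched no label and was not used. The deposited count table holds whole-number read counts per Ensembl gene and the deposited FPKM table holds length- and depth-scaled values, both made by the authors. The mapping and counting software, the build and the gene models behind them are not stated in the labels used here. Positions, gene classes and transcripts were taken from GENCODE M21 (GRCm38), promoters from RefSeq (GRCm38.p6), and copies were matched with blastn 2.17.0.

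Members were selected and described on the deposited FPKM values. Differences were tested on the deposited counts with edgeR 4.0.16 (R 4.3.3): genes passing filterByExpr with a minimum count of 10, TMM scaling, quasi-likelihood fit over 14 culture libraries, or over all 19 for contrasts with lines, Benjamini-Hochberg adjustment over all genes and a threshold of 0.05. The 3 CiPS lines were fitted as 1 group. Log2 values of the deposited FPKM plus 1 were used with limma 3.58.1 and counts with DESeq2 1.42.0 as alternatives, beside RLE size factors, no filter, each library left out, the libraries with liver transcripts left out, and a replicate block. Same-numbered cultures deviated together in all 21 pairs of 7 groups (correlation 0.258 to 0.578), so the number was used as a block. The labels state no pairing, and the source of the shared deviation was not tested. The procedure was tested on simulated data. The coefficient of variation between replicates was 23%, and 14.3% with the block.

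Members and lists were chosen with earlier results of these data known. Genes named were the 12 highest at day 28, the 6 largest changes each way in the contrasts of day 28 CA with day 28, with day 20 CA (both among members with at least 20 counts in the higher group) and with CiPS lines, the 5 highest of each list, the 3 nearest each threshold, and runs of 3 or more neighbours; Hormad1, Syce1, Mei1, Piwil4, the genes beside the repeat family, Mov10l1, Slc25a31, Tex12, Chit1 and Trim50 were named after their values were seen.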

Additional observations from a re-analysis of the deposited data

How the results depend on the processing

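With the replicate block the count of members called moved to 225 (from 132 higher) for day 28 against day 20 with CA, to 71 (from 3) for day 24 against day 20, to 23 (from 0) for day 28 against day 24, and to 2 (from 0) for CA against untreated at day 28; it changed no other culture comparison. Without the filter on low counts these counts were 212, 94, 29 and 8 (7 higher and 1 lower), and 1 for CA against untreated at day 24. DESeq2 gave 46 for day 24 against day 20, 17 for day 28 against day 24, and 1 each for CA against untreated at days 24 and 28. limma gave 19, 33 and, at day 28, 9 (8 higher and 1 lower). Leaving out 1 library gave 53 to 67 for day 28 against day 20 with CA and 0 for day 24 against day 20; without both libraries that hold liver transcripts both counts were 0, with 1 library left in each of 2 groups, whose spread was taken from the others. CiPS against ES lines gave 1 call, 3 without the filter, 3 by limma and 2 without the three-step line. A day 28 threshold of 2 FPKM left 168 members. With thresholds of 2 and 0.1 FPKM, 84 members were off in every line. Them5 lay at -0.36 to 1.07 on the log2 scale between days 28 and 20 with CA when 1 library was left out, and was negative without day 20 CA replicate 1 (adjusted p 0.8846); the cause was not tested. Of 360 repeats over 36 named genes and contrasts, 333 kept direction and side of the threshold, 12 lost and 14 gained a call, and 1 reversed. Members near 1 FPKM rest on few counts.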
